A study of Mus musculus with 32 samples.

Results

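The genes described here are 40 genes of the skeletal muscle fibre, given as a fixed list of symbols. This list, the gene pairs and the further gene lists were chosen with earlier results of these data known. Their counts and p-values therefore describe these data and are no independent support. Each symbol was matched to a row of the expression table through the platform annotation, and all 40 were found, with 1 row each, among 22206 tested rows and 19505 gene symbols. By role, 18 encode parts of the contractile filaments, 9 belong to the Z-disc or to scaffolds attached to it, 7 handle calcium and 6 serve energy metabolism. By fibre type, 15 were assigned to fast fibres, 4 to slow fibres (Tnnc1, Tnni1, Tnnt1 and Mybpc1) and 21 to neither.

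A skeletal muscle fibre shortens when myosin heads of the thick filament pull on actin of the thin filament, and troponin and tropomyosin on the thin filament make that pull depend on calcium. Calcium leaves the sarcoplasmic reticulum through the ryanodine receptor and is pumped back by a calcium ATPase, while creatine kinase, glycogen breakdown and glycolysis supply energy. Fast and slow fibres use different isoforms of many of these proteins, and slow fibres lean more on oxidative metabolism and on myoglobin. Skin of the mouse trunk lies on a thin sheet of striated muscle, the panniculus carnosus, and the outer ear carries small striated muscles of its own.

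Expression was measured in 4 groups of 8 samples from NC/Nga mice, a strain used as a model of dermatitis. These were ear skin after HDM, ear skin after sham, back skin after HDM and back skin after sham. The series names the condition as dermatitis induced by HDM, while the labels neither spell out HDM nor describe the sham, and they state no age or sex. All animals were kept free of specific pathogens, and each sample was RNA from an 8 mm punch, so it held every tissue layer that the punch took. The same amount of RNA was used from each sample. In such bulk RNA, fewer muscle fibres, less RNA per fibre and a larger share of RNA from other cells cannot be told apart. Mouse numbers recur across tissues without a statement that they mark one animal, so that fewer than 32 animals may stand behind the arrays.

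The values are log2 levels from Mouse Clariom D arrays, and every difference given here is a difference of log2 means, the first-named group minus the second. They span 1.71 to 19.93, a wide range for this normalization, and if they were rescaled the differences would not be true log2 folds. Myh4 reached 19.7 and Acta1 reached 19.34 on their brightest arrays, close to that upper limit, where differences may be compressed. The median of the negative control rows of an array, 4.43 to 5.38, served as its background. A gene under it on all 8 arrays of a group has only a bound there, which held for Tnni1 in HDM ears and in both back skin groups and for Mybpc2 in HDM ears. Defining fibre markers (Acta1, Ckm, Myh1, Myh2, Myh4, Ttn, Neb and Ryr1) were above background on every array, so muscle RNA was present in all 32 samples.

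Sham back skin mice 1 and 2 had the lowest hair follicle signal of their group. Their mean over 11 markers was 7.30 and 11.68, against 12.77 to 16.07 on the other 6 arrays, so that mouse 1 lay far below the rest and mouse 2 near the next array. Over the 40 muscle genes their means were 9.83 and 8.37, with mouse 3 at 9.18 and mice 5 and 7 highest at 12.79 and 12.83. Counts of members that use sham back skin are also given without mice 1 and 2.

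Promoter letters are shown for 5 genes on which the comparisons turn. They are Myh4, the member that fell most in HDM ears, its neighbours Myh1 and Myh2 in the same cluster of myosin genes, Tnnt1, the slow gene that differed most between sites, and Acta1, the skeletal actin that served as partner for the metabolic genes. Each line gives the 150 bases before the annotated transcription start, 5′ to 3′ on the strand of the gene, from RefSeq on build GRCm38.p6. Capitals mark matches to CANNTG (the E-box bound by myogenic factors), TATAAA and the CArG box (bound by serum response factor). The stretches lie at chr11:67237662-67237811 for Myh4, chr11:67199952-67200101 for Myh1 and chr11:67170877-67171026 for Myh2, each on the plus strand. Those of Tnnt1 and Acta1 lie on the minus strand at chr7:4515976-4516125 and chr8:123894776-123894925.
Myh4: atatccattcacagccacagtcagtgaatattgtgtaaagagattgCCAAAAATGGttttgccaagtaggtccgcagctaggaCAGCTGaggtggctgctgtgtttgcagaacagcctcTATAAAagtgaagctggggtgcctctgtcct
Myh1: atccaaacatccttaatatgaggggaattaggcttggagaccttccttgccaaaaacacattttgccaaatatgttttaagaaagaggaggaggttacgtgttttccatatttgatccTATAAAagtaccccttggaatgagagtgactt
Myh2: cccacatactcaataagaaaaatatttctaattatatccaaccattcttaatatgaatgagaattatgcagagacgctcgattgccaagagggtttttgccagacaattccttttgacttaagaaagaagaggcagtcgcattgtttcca
Tnnt1: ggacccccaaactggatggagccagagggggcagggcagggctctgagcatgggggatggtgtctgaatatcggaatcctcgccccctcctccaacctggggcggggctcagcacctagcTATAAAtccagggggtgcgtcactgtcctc
Acta1: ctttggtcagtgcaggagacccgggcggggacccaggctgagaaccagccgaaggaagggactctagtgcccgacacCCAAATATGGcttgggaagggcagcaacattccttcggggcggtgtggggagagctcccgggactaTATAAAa

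Promoter windows were held for 29 of the 40 members, and both strands of the 250 bases before the start were searched. CANNTG was found for 24 of 29 members (82.8%), against 69.3% of 27025 genes. Its special case CAGCTG, which every CANNTG count includes, was found for 15 members (51.7%), against 14.7% of genes. TATAAA was found for 5 members (17.2%, Acta1, Myh1, Myh4, Myl1 and Tnnt1), against 14.3% of genes. The CArG box was found for Acta1, Ldb3 and Myh4 (10.3%, against 1.62%), and the MEF2 site for Ttn and Xirp2 (6.90%, against 0.592%). Fast and slow members held CAGCTG in 5 of 10 and 2 of 4 windows. These matches describe letters in the windows and no binding was measured. The TATAAA nearest the start began 7 bases before it in Acta1, against 30, 31 and 32 in Tnnt1, Myh4 and Myh1. The windows depend on the annotated start, so a missing match, as in Myh2, may reflect where that start was placed.

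**Figure D1:**
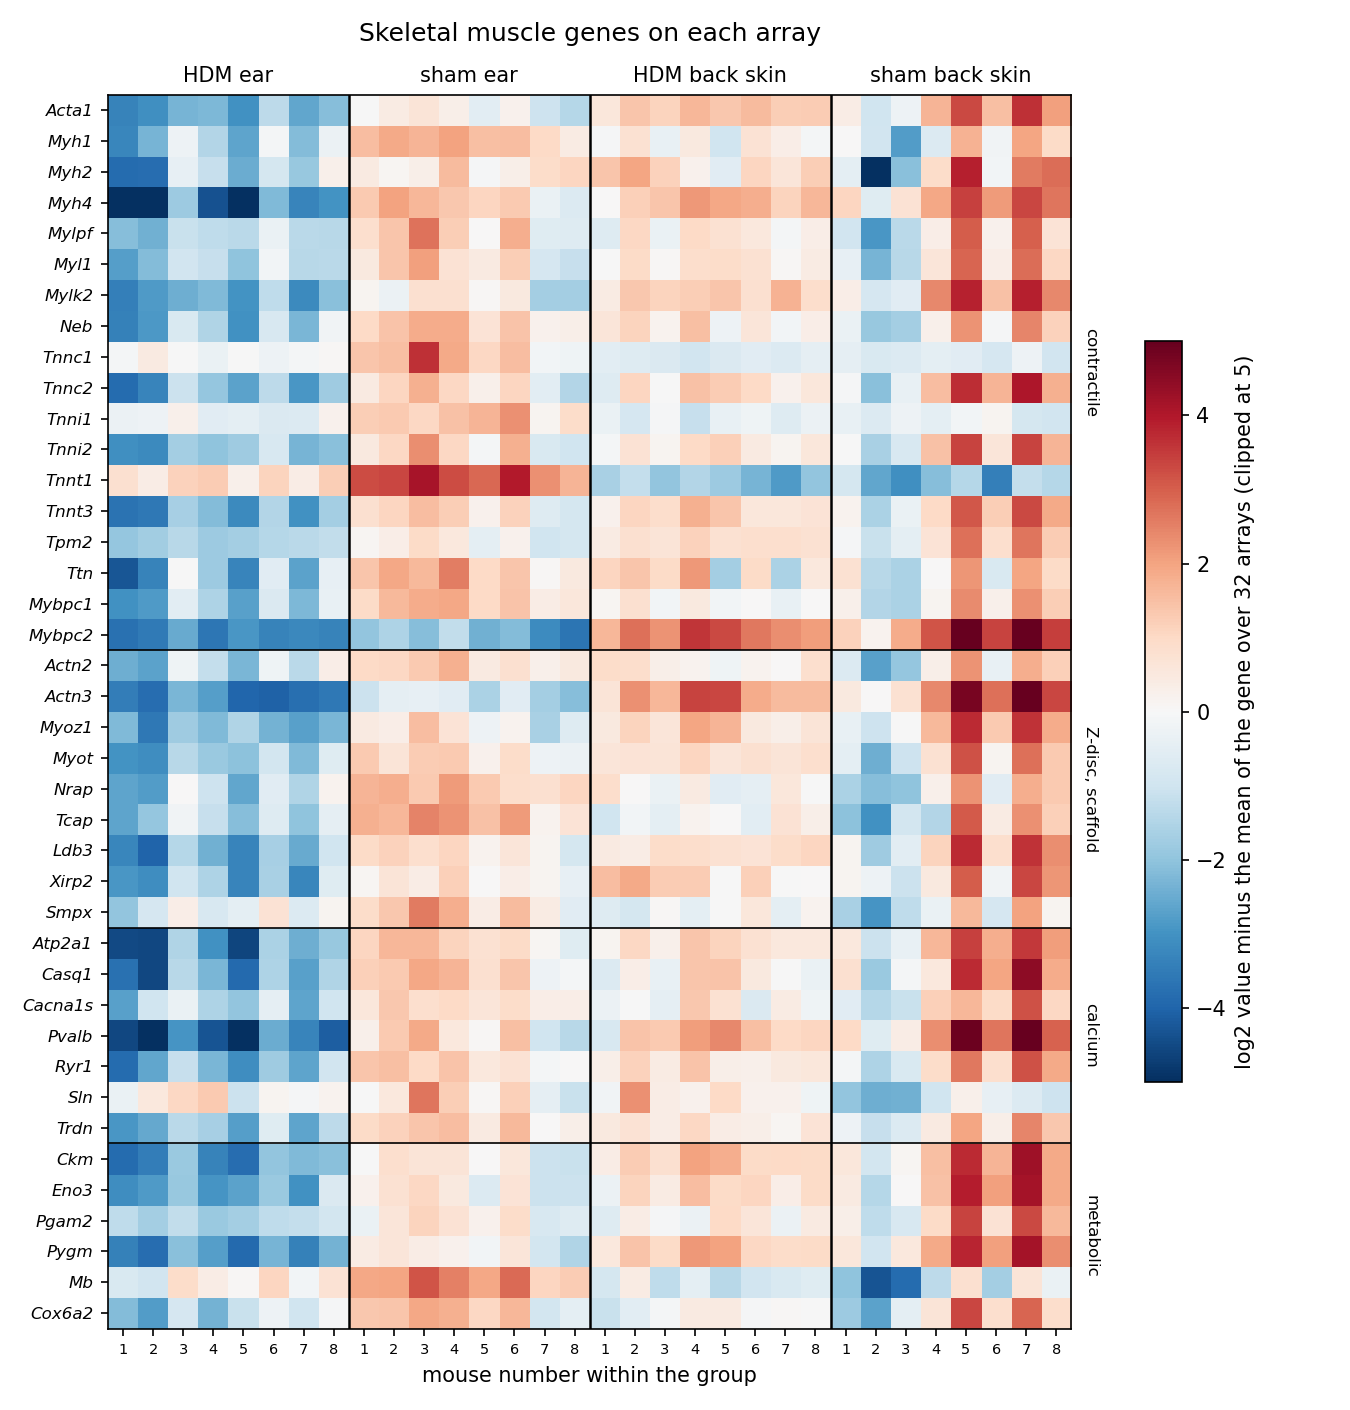
Log2 value of each of the 40 muscle genes (rows, by role) on each of the 32 arrays (columns, by group and mouse number), as the difference from the mean of the gene over all arrays, with colours clipped at 5. HDM ears are blue for nearly every gene, Tnnt1 and Mb are red in sham ears, Mybpc2 and Actn3 are red in back skin, and sham back skin mice 5 and 7 are the reddest columns while mouse 2 is blue.

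Skeletal muscle genes were lower in HDM ears than in sham ears almost without exception. The mean over the 40 members on one array ran between 7.20 and 9.04 in HDM ears and between 9.61 and 11.53 in sham ears, so that the 2 groups did not overlap. Of the 40 members, 38 fell and 0 rose (limma with Benjamini-Hochberg adjustment over all rows, adjusted p under 0.05; 38 and 0 at an unadjusted p under 0.05), where 15.5% of all tested rows were lower and 16.4% were higher. The median difference of the members was -2.45, against -0.02 for all rows. By role, 17 of 18 contractile genes fell (median -2.37), as did 9 of 9 Z-disc and scaffold genes (-2.46), 6 of 7 calcium genes (-3.09) and 6 of 6 metabolic genes (-2.36), and the roles were not tested against each other. Fast members were lower in 14 of 15 cases (median -2.72) and slow members in 4 of 4 (median -1.93, or -1.84 when values below background are set to it).

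Among the contractile genes, Myh4, the heavy chain of the fastest type IIB fibres, gave the largest difference. Its values ran between 9.62 and 14.46 with a median of 12.45 in HDM ears, and between 15.6 and 18.29 with a median of 17.575 in sham ears. No HDM ear reached the lowest sham ear, and the difference was -5.17 ± 0.62 (standard error, limma adjusted p = 1.73e-07), which is 36.1-fold lower. Myh1, the type IIX heavy chain, had 9.41 to 12.58 in HDM ears and 13.07 to 14.68 in sham ears and fell by 3.01 ± 0.50. Myh2, the type IIA heavy chain of oxidative fast fibres, had 8.13 to 12.24 in HDM ears and 11.95 to 13.58 in sham ears. These 2 ranges overlapped, and the fall of 2.37 ± 0.81 (limma adjusted p = 0.023) lost its call without HDM ear mouse 1 (adjusted p = 0.0589) or mouse 2 (adjusted p = 0.0581).

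The thin filament genes fell as well. Acta1, skeletal alpha-actin, had a median of 13.225 in HDM ears and 15.78 in sham ears, and fell by 2.33 ± 0.46. The fast troponin genes Tnnt3, Tnnc2 and Tnni2 differed by -3.12, -2.81 and -2.71. Their slow counterparts Tnnt1, Tnnc1 and Tnni1 differed by -2.29, -1.37 and -1.57. Tnnc1 lay near background in HDM ears, at 4.91 to 5.68. Tnni1, which was under background in HDM ears and above it in 1 of 8 sham ears, allowed only a fall of at least 1.38-fold. Nebulin and titin, the giant proteins that run along the filaments, fell by 2.94 ± 0.52 (Neb) and 3.36 ± 0.63 (Ttn). Among the myosin binding proteins, slow-type Mybpc1 fell by 2.96 ± 0.47, while fast-type Mybpc2 did not pass (-1.0 ± 0.51, limma adjusted p = 0.14, or 0.0459 in a fit without sham back skin mice 1 and 2). Mybpc2 was under background in all HDM ears and above it in 1 of 8 sham ears.

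Z-disc and scaffold genes gave differences between -2.97 and -1.50. The largest was that of Tcap, telethonin, which caps titin at the Z-disc, with 4.62 to 7.08 in HDM ears and 7.45 to 9.75 in sham ears. The smallest was that of Smpx, a small muscle protein of the X chromosome, whose call (adjusted p = 0.022) was lost without HDM ear mouse 1 (adjusted p = 0.0602) or sham ear mouse 3 (adjusted p = 0.0567). The fast-fibre alpha-actinin Actn3 was above background on 2 of 8 HDM ear arrays and on 8 of 8 sham ear arrays, and fell by 2.39 ± 0.55 (a difference of -1.91 when values below background were set to it). Actn2, the alpha-actinin of every fibre, fell by 2.15 ± 0.52.

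Calcium genes gave the 3 largest falls after that of Myh4. Pvalb, parvalbumin, a calcium buffer of fast fibres, had 3.90 to 6.49 with a median of 4.755 in HDM ears and 7.60 to 10.88 with a median of 9.38 in sham ears. It fell by 4.38 ± 0.64 (limma adjusted p = 2.93e-06), and the difference was -4.13 when values below background were set to it, as 3 of 8 HDM ears were above background. Atp2a1, the fast-fibre calcium pump, had 9.60 to 12.68 in HDM ears and 13.56 to 15.85 in sham ears, and fell by 3.86 ± 0.55 (limma adjusted p = 2.06e-06). Casq1, the calcium store protein calsequestrin, had 5.39 to 8.56 in HDM ears and 9.71 to 11.88 in sham ears, and fell by 3.70 ± 0.62 (limma adjusted p = 2.03e-05). In these 3 genes the HDM and sham ears did not overlap. Sln, sarcolipin, a small inhibitor of the calcium pump, had 4.95 to 7.32 in HDM ears and 4.89 to 8.69 in sham ears, and its difference of -0.30 ± 0.45 did not pass (limma adjusted p = 0.674).

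The metabolic genes fell by 1.62 to 2.96. Pygm, muscle glycogen phosphorylase, and Ckm, muscle creatine kinase, fell by 2.96 ± 0.49 and 2.89 ± 0.51, and in both the HDM ears (8.21 to 10.03 for Pygm and 6.97 to 9.0 for Ckm) stayed below the sham ears (10.6 to 12.72 and 9.71 to 11.68). The glycolytic enzymes Eno3 and Pgam2 differed by -2.43 and -1.62. Mb, myoglobin, the oxygen store of oxidative fibres, had 10.43 to 12.45 in HDM ears and 12.46 to 14.54 in sham ears and fell by 1.92 ± 0.53. Cox6a2, the striated muscle subunit of cytochrome oxidase, fell by 2.29 ± 0.61.

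Adipocyte and cartilage markers were lower in HDM ears as well, while counts of other markers lay nearer the 15.5% of all rows that were lower. Of 10 measured adipocyte markers, 9 were lower in HDM ears, where their mean on one array was 6.33 to 7.68, against 8.10 to 8.93 in sham ears, and Ucp1 was under background in both. Of 10 cartilage markers, 7 were lower, with array means of 5.67 to 6.72 in HDM ears and 6.99 to 7.34 in sham ears, and Col2a1 and Matn1 were under background in both. Of 5 measured Schwann cell markers, 1 was lower, Mbp of myelin, with 7.31 to 10.39 in HDM ears and 9.86 to 11.32 in sham ears (-2.04 ± 0.42). Of 11 hair follicle markers 1 was lower, with all 11 differences below 0 and a median of -1.06. The part of these tissues in the muscle result was not tested. Endothelial markers were lower for 1 and higher for 1 of 8 genes, with array means of 7.89 to 8.28 in HDM ears and 7.60 to 8.55 in sham ears. Smooth muscle markers were lower for 2 and higher for 1 of 8 genes.

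**Figure D2:**
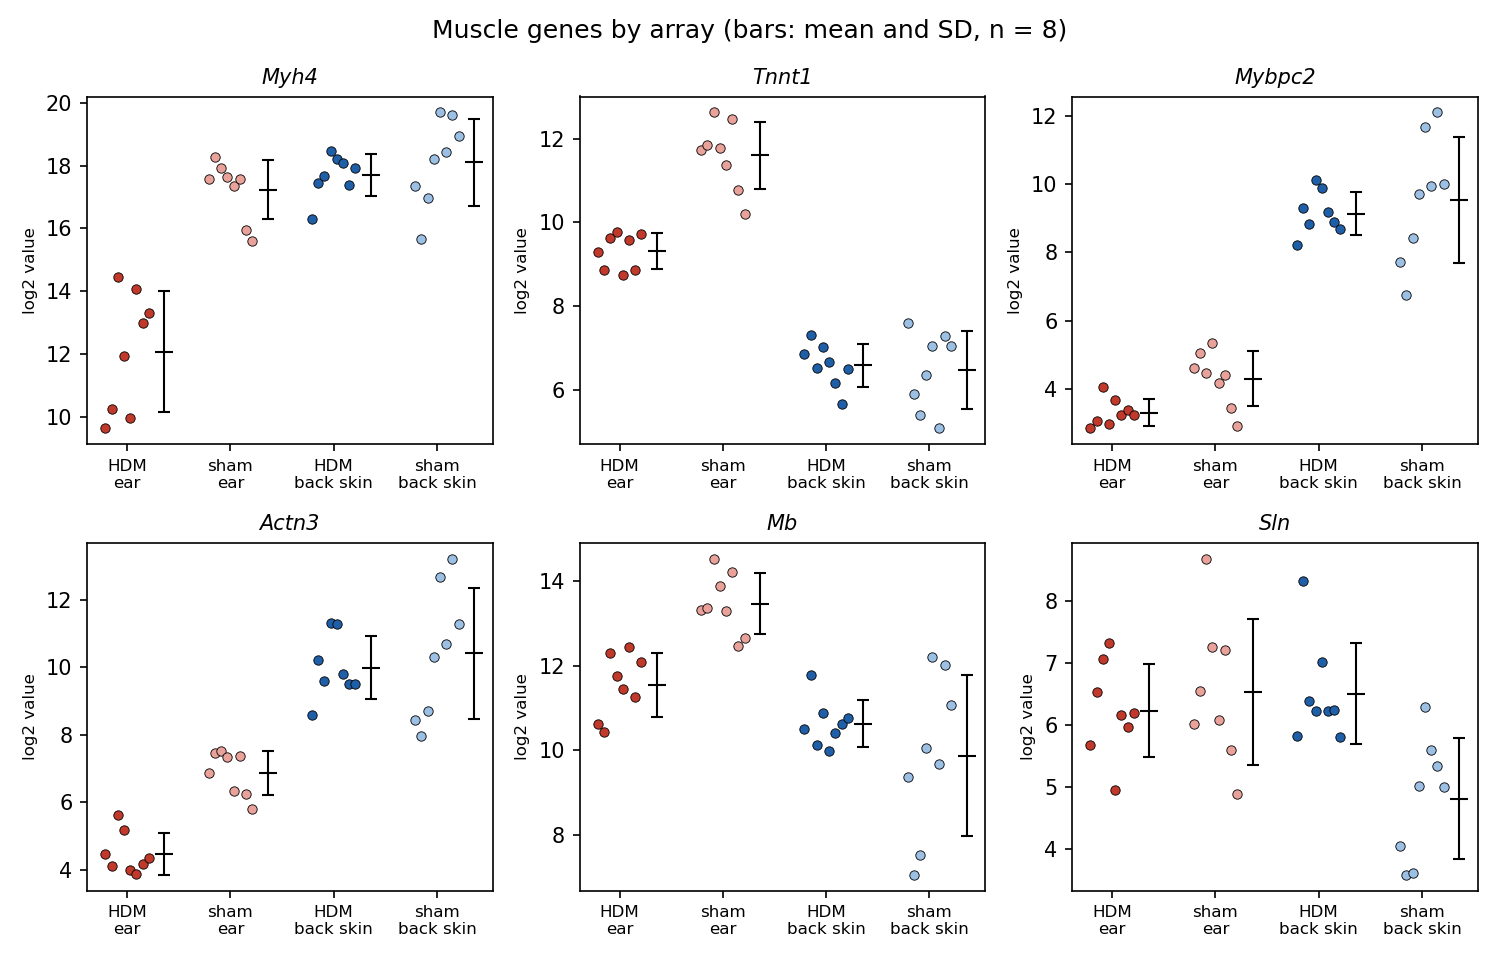
Log2 values of 6 muscle genes on each array (points), with mean and SD of the 8 arrays of each group (bars). Myh4 is low in HDM ears alone, Tnnt1 and Mb are higher in sham ears than in either back skin group, Mybpc2 and Actn3 are lower in both ear groups than in back skin, and Sln is lowest in sham back skin.

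In back skin, HDM and sham mice differed little in the means of muscle genes, and sham mice differed widely among themselves. The mean over the 40 members was 10.12 to 11.05 on HDM arrays and 8.37 to 12.83 on sham arrays, so that every HDM array lay within the sham range. Of the 40 members, 0 fell and 1 rose by limma, where 8.56% of all rows were lower and 6.18% were higher, and at an unadjusted p under 0.05 the counts were the same 0 and 1. The median difference was -0.18, against 0.01 for all rows. The member that rose was Sln, with 5.81 to 8.32 in HDM and 3.58 to 6.29 in sham back skin. Its difference was 1.70 ± 0.45 (limma adjusted p = 0.00839), or 1.29 when values below background were set to it, with 5 of 8 sham arrays above background, and all 8 HDM arrays lay above the sham mean.

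The largest differences that did not pass were those of Casq1 (-1.15 ± 0.62, limma adjusted p = 0.23) and Pvalb (-1.08 ± 0.64, limma adjusted p = 0.283). Pvalb had 8.16 to 11.37 in HDM and 8.38 to 14.01 in sham back skin, and Casq1 had 9.25 to 11.38 in HDM and 8.11 to 14.40 in sham back skin. The smallest was that of Tnni1, under background in both groups. Tnnc1 followed (-0.04 ± 0.30), above background on 1 of 8 HDM and 2 of 8 sham arrays. Among genes above background on every array of both groups, Tpm2, beta-tropomyosin, had the smallest (-0.04 ± 0.38). Mb, by contrast, had a difference of 0.76 ± 0.53 (limma adjusted p = 0.376).

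Without sham mice 1 and 2, the median difference of the members was -0.76, and 4 members fell while Sln still rose (1.37, limma adjusted p = 0.048). Those 4 were Casq1 (-1.80, limma adjusted p = 0.0352), Pvalb (-1.79, adjusted p = 0.0451), Eno3 (-1.49, adjusted p = 0.0394) and Pgam2 (-1.39, adjusted p = 0.0305). In that fit 7.92% of all rows were lower and 6.03% were higher, so the share of members that fell was not far above that of all rows. Sham mouse 2 held the lowest value of its group for 33 members. Leaving it out raises their sham means and so moves their differences downwards. Adipocyte markers moved here too, with 6 of 10 lower and array means of 9.65 to 10.59 in HDM and 10.69 to 11.54 in sham back skin, as did smooth muscle markers, 5 of 8 of which were lower, with array means of 8.86 to 9.56 in HDM and 9.54 to 10.62 in sham back skin. Of 5 Schwann cell markers 2 were lower, Mbp (-1.4 ± 0.42) and Pmp22 (-0.87 ± 0.21). Their part in the muscle values was not tested. Without sham mice 1 and 2 the adipocyte and smooth muscle counts were again 6 of 10 and 5 of 8, and 1 of 5 Schwann cell markers was lower.

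Whether the HDM effect differed between sites was tested directly, as the effect in the ear minus the effect in back skin. Of the 40 members, 24 had a more negative effect in the ear and 0 the opposite by limma (37 and 0 at an unadjusted p under 0.05), where 3.37% of all rows passed in the same direction and 6.77% in the other. The median was -2.41. Myh4 gave the largest value (-4.75 ± 0.88, limma adjusted p = 0.000665), followed by Ttn (-3.56 ± 0.89, adjusted p = 0.00882), Pvalb (-3.30 ± 0.90, adjusted p = 0.0159) and Neb (-3.17 ± 0.74, adjusted p = 0.00511). The smallest values were those of Mybpc2 (-0.59 ± 0.72, adjusted p = 0.669) and Pgam2 (-0.73 ± 0.65, adjusted p = 0.535). By role, 10 of 18 contractile, 6 of 9 Z-disc and scaffold, 5 of 7 calcium and 3 of 6 metabolic genes passed.

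Of the fast members 5 of 15 passed, and of the slow members 4 of 4, although the median value of the fast members (-2.32) was larger in size than that of the slow ones (-1.98). Standard errors were 0.71 to 1.14 among the fast and 0.31 to 0.66 among the slow members, and Tnni1 was measured against background alone. Without sham back skin mice 1 and 2, 15 members passed with a median of -1.85, where 3.02% of all rows passed in that direction. The 9 that no longer did were Acta1, Tnnc1, Actn2, Tcap, Ldb3, Xirp2, Sln, Ckm and Pygm. Myh4 and Ttn were at -4.22 (adjusted p = 0.00215) and -3.36 (adjusted p = 0.0201) in that fit, and Pvalb at -2.58 (adjusted p = 0.0469). Leaving out single arrays, the calls of Ldb3, Xirp2, Sln and Tnnc1 held in 26, 22, 21 and 13 of 32 fits, with highest adjusted p of 0.0569, 0.0551, 0.0676 and 0.0661.

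**Figure D3:**
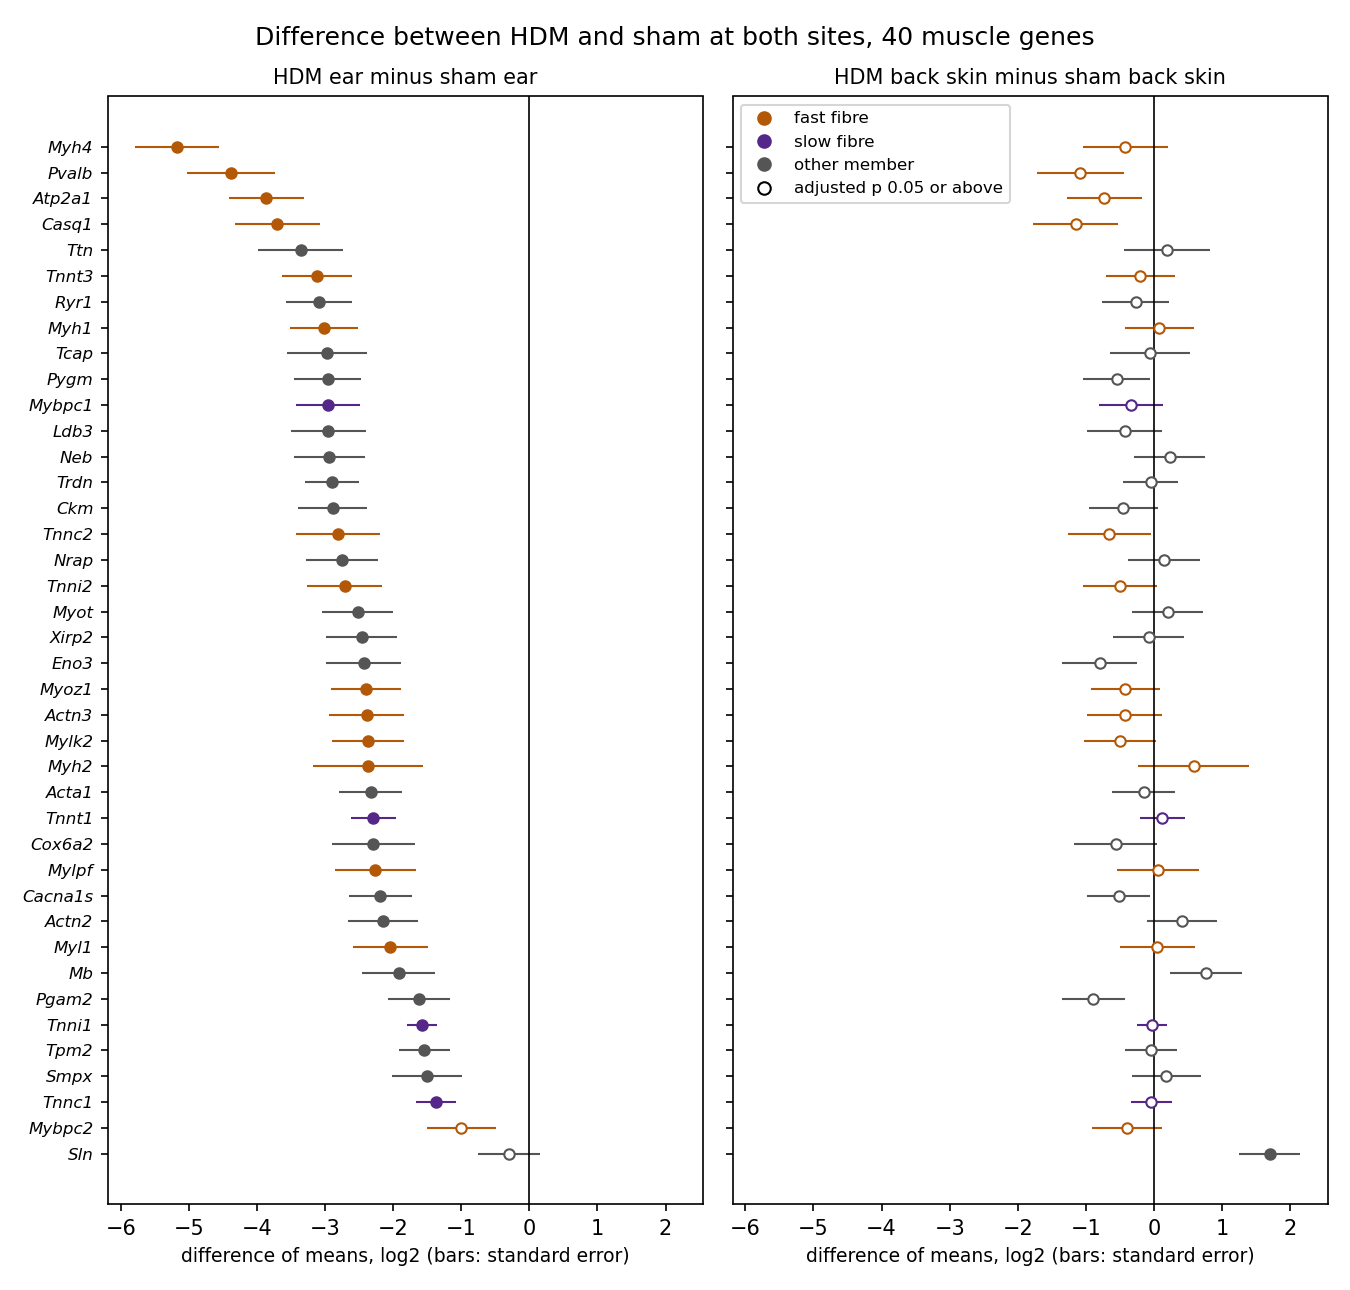
Difference of log2 means between HDM and sham for the 40 muscle genes in ear (left) and back skin (right), with standard errors, sorted by the ear value. Filled points passed at adjusted p under 0.05 and colours mark fast, slow and other members. All 40 ear values lie below 0, from -5.17 to -0.30, while those of back skin lie on both sides of 0 and 1 of them is filled.

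Ear and back skin of sham mice differed in single muscle genes in both directions, while the list as a whole was not shifted. The counts of called members lay not far above the shares of all rows. The median difference of the members between sham ear and sham back skin was 0.01, against 0.04 for all rows, and -0.69 without sham back skin mice 1 and 2. Within that, 8 members were lower in the ear and 9 were higher, where 14.1% of all rows were lower and 15.6% were higher. Slow members were lower in 0 and higher in 3 of 4 cases, and fast members lower in 4 and higher in 1 of 15. These comparisons share the sham ear and sham back skin arrays with those above.

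On the high side stood Tnnt1, slow skeletal troponin T, with 10.21 to 12.63 (median 11.755) in sham ears and 5.08 to 7.60 (median 6.705) in sham back skin. The groups did not overlap, and Tnnt1 was 5.13 ± 0.33 higher in the ear (limma adjusted p = 9.95e-14), a 35.0-fold difference. Mb followed, with 12.46 to 14.54 in sham ears and 7.06 to 12.2 in sham back skin and a difference of 3.60 ± 0.53 (limma adjusted p = 2.27e-06). Tnnc1, the troponin C shared by slow and cardiac muscle, was 1.96 ± 0.30 higher, and it was above background on 6 of 8 sham ear and 2 of 8 sham back skin arrays. Tnni1 was at least 1.48-fold higher. Sln, Tcap, Smpx, Nrap and Myh1 were 1.44 to 1.73 higher.

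On the low side stood Mybpc2, the fast-type myosin binding protein, with 2.92 to 5.36 in sham ears and 6.74 to 12.11 in sham back skin. The difference was -5.24 ± 0.51 (limma adjusted p = 9.35e-10), or -4.31 when values below background were set to it, and 1 of 8 sham ears was above background. Actn3 had 5.80 to 7.51 in sham ears and 7.96 to 13.22 in sham back skin, without overlap, a difference of -3.54 ± 0.55 (limma adjusted p = 6.31e-06). Pvalb, Pygm, Mylk2 (the myosin light chain kinase of skeletal muscle), Acta1, Ckm and Eno3 were lower, with differences of -1.93 to -1.52. The smallest differences were those of Ryr1, the ryanodine receptor (-0.07 ± 0.49, limma adjusted p = 0.94), and Myl1, a fast essential light chain (0.09 ± 0.55, limma adjusted p = 0.932). Myh4 itself did not pass, at -0.87 ± 0.62 (limma adjusted p = 0.324).

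Several calls changed when sham back skin mice 1 and 2 were left out. Without them Tnnt1 was at 5.23, Mb at 3.05, Actn3 at -4.28 and Mybpc2 at -6.01. The count became 13 lower and 5 higher, where 13.3% of all rows were lower and 15.1% were higher in that fit. Tcap, Smpx, Nrap and Myh1 lost their calls, and Myoz1, Tnnc2, Ldb3, Tpm2 and Pgam2 gained one. Over single arrays left out, the number lower was 5 without sham back skin mouse 5, without sham back skin mouse 7 or without sham ear mouse 8, and the number higher was 5 without sham back skin mouse 2, without sham back skin mouse 3 or without sham ear mouse 4. Pvalb, Ckm and Eno3 kept their calls in 29, 29 and 25 of 32 such fits, and Myh1, Smpx, Nrap and Tcap in 28, 26, 25 and 24.

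Between HDM ear and HDM back skin, nearly the whole list was lower in the ear. Of the 40 members, 32 were lower and 1 was higher, where 11.2% of all rows were lower and 16.8% were higher, and the median was -2.57. Fast members were lower in 15 of 15 cases (median -3.23), and of the slow members 1 was lower and 1 higher. Mybpc2 had 2.84 to 4.06 in HDM ears and 8.22 to 10.13 in HDM back skin and was at least 20-fold lower (limma adjusted p = 9.49e-11). Myh4 (-5.62 ± 0.62), Actn3 (-5.50 ± 0.55) and Pvalb (-5.22 ± 0.64) followed, each without overlap of the groups.

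The member that was higher was again Tnnt1, with 8.74 to 9.77 in HDM ears and 5.67 to 7.32 in HDM back skin, a difference of 2.72 ± 0.33 (limma adjusted p = 1.16e-07). Mb (0.91 ± 0.53, adjusted p = 0.212) did not pass, nor did Tnnc1 (0.62 ± 0.30, adjusted p = 0.132), which passed without sham ear mouse 3 (adjusted p = 0.0273). Mybpc1 was the slow member that was lower, by a difference of -1.85 ± 0.47. Its means were 12.68 in HDM and 13.02 in sham back skin, where Tnni1 was under background and Tnnc1 near it (4.56 and 4.60). Whether Mybpc1 marks slow fibres in these samples was not tested. The smallest differences above background were those of Smpx (-0.23 ± 0.51, limma adjusted p = 0.797) and Sln (-0.27 ± 0.45, limma adjusted p = 0.713). The call of Mylpf, the fast regulatory light chain, was lost without HDM ear mouse 2 (adjusted p = 0.0527), and that of Nrap held in 23 of 32 fits.

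**Figure D4:**
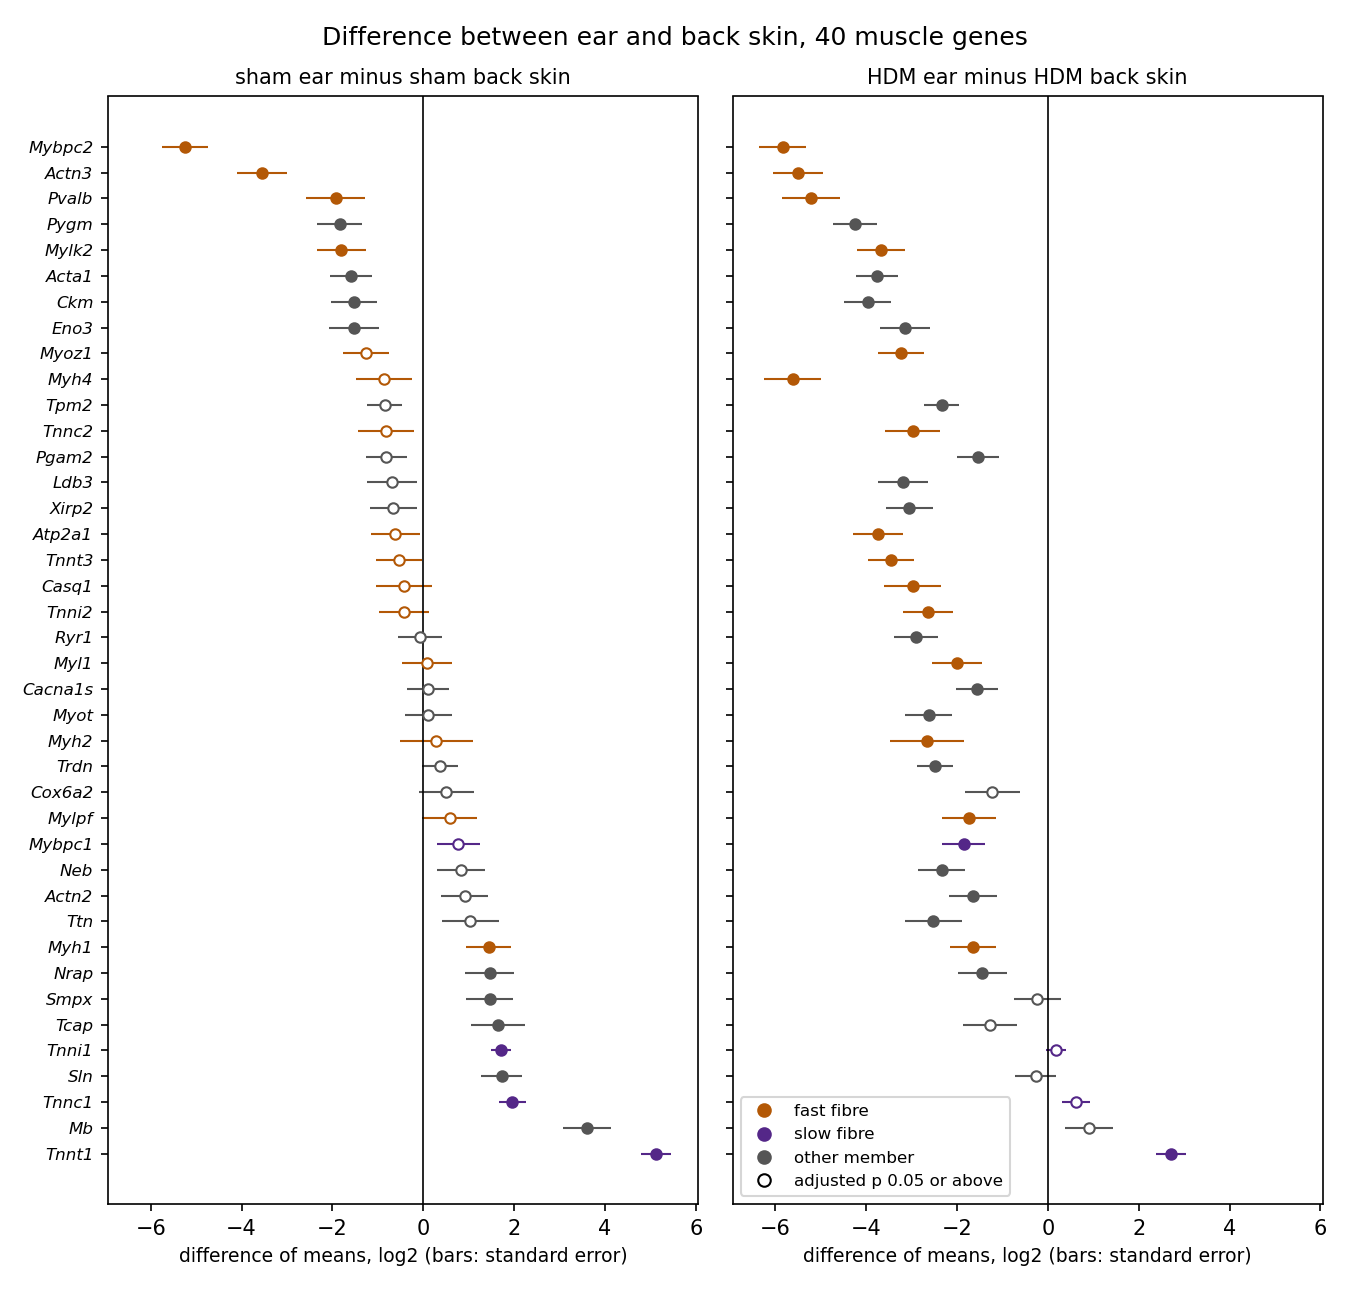
Difference of log2 means between ear and back skin for the 40 muscle genes in sham mice (left) and HDM mice (right), with standard errors, sorted by the sham value. Filled points passed at adjusted p under 0.05. Sham values spread evenly around 0, with Mybpc2 and Actn3 lowest and Mb and Tnnt1 highest, while 36 of 40 HDM values lie below 0.

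To set fast against slow and metabolic against contractile genes, 12 pairs were compared as the difference of 2 genes on one array. A shift common to both genes cancels in that difference, unless one of them lies at background. Only changes of such a difference between groups are read, since the levels of different probe sets are not comparable. The 4 comparisons gave 48 tests, each an exact two-sided permutation test over 12870 splits with a smallest possible p of 0.000155, adjusted over the 48. Of 12 pairs, 9 passed for HDM against sham ear, 2 for HDM against sham back skin, 9 for sham ear against sham back skin and 10 for HDM ear against HDM back skin. The 9 include the pairs of Tnni1, Casq2 and Mybpc2, which were above background on 0 or 1 of 8 arrays in each ear group. Such a pair mostly follows its other gene and says little on fast against slow. Background limits pairs in the other comparisons too. The comparisons share arrays with one another. Without sham back skin mice 1 and 2, 23 of the 24 pair tests that use sham back skin were on the same side of the threshold, and Tnnt3 minus Tnnt1 between HDM and sham back skin was not.

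Tnnt3 minus Tnnt1 (fast minus slow troponin T) gave the largest site difference among pairs with both genes above background on every array. It was 2.54 ± 0.28 in sham ears and 8.22 ± 1.47 in sham back skin (SD, n = 8 each), a difference of -5.67 (exact permutation adjusted p = 0.000533). In HDM mice it was 1.72 ± 0.62 in ears and 7.89 ± 0.53 in back skin, a difference of -6.18 (exact permutation adjusted p = 0.000533). Ear and back skin values did not overlap in either case. Between HDM and sham ears the difference was -0.83 (exact permutation adjusted p = 0.00808), with overlap, and a limma fit of the 12 pairs gave an adjusted p of 0.0938. Between HDM and sham back skin it was -0.33 (exact permutation adjusted p = 0.645), and -1.02 without sham mice 1 and 2 (exact permutation adjusted p = 0.0358).

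Myh4 minus Myh2 set the heavy chain of the fastest fibres against that of oxidative fast fibres. It was 0.42 to 2.94 in HDM ears and 2.53 to 6.18 in sham ears, a difference of -2.81 (exact permutation adjusted p = 0.00275). In back skin it was 2.91 to 6.78 after HDM and 3.80 to 8.75 after sham, a difference of -1.0 that did not pass (exact permutation adjusted p = 0.251). Sham ear and sham back skin did not differ by the test either (-1.16, exact permutation adjusted p = 0.188). Tnnc2 minus Tnnc1 (troponin C) was lower in HDM than in sham ears (-1.44, exact permutation adjusted p = 0.00925) and in sham ear than in sham back skin (-2.78, exact permutation adjusted p = 0.00497). Tnnc1 was above background on 7 of 8 HDM ear, 6 of 8 sham ear and 2 of 8 sham back skin arrays. At 4.91 to 5.68 in HDM ears it lay near background, which limits how far it could fall there.

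Actn3 minus Actn2 differed between sites. It was -6.30 ± 0.42 in sham ears and -1.85 ± 0.70 in sham back skin (SD, n = 8 each), a difference of -4.45 (exact permutation adjusted p = 0.000533). Between HDM and sham ears it differed by -0.24 (exact permutation adjusted p = 0.645), although Actn3 was above background on 2 of 8 HDM ear arrays. Mybpc2 minus Mybpc1 was lower in sham ear than in sham back skin (-6.01, exact permutation adjusted p = 0.000533), with Mybpc2 above background on 1 of 8 sham ear arrays. Its rise of 1.96 in HDM against sham ears (exact permutation adjusted p = 0.000932) came with Mybpc2 under background on all HDM ear arrays.

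Of 3 pairs with slow partners from outside the list, 2 were lower in sham ear than in sham back skin. Myh4 minus Myh7, the slow myosin heavy chain, was 9.76 ± 0.77 in sham ears and 14.16 ± 1.64 in sham back skin (SD, n = 8 each), a difference of -4.40 (exact permutation adjusted p = 0.000533), with Myh7 above background on 8 of 8 and 1 of 8 arrays. For Mylpf minus Myl2, the slow regulatory light chain, sham ear minus sham back skin was -1.94 (exact permutation adjusted p = 0.0338), and -1.74 when values below background were set to it (exact permutation adjusted p = 0.0624). For Tnni2 minus Tnni1 it was -2.13 (exact permutation adjusted p = 0.0293), and -0.98 when Tnni1 was set to background (exact permutation adjusted p = 0.291). Between HDM and sham ears that pair differed by -1.14 (exact permutation adjusted p = 0.0482, limma adjusted p = 0.097), with Tnni1 under background in HDM ears. Mylpf minus Myl2 did not differ between HDM and sham ears by the test (0.14, exact permutation adjusted p = 0.793). Myh4 minus Myh7 was lower in HDM ears (-2.18, exact permutation adjusted p = 0.00746). Myl2 and Myh7 were above background on 4 and 3 of 8 HDM ear arrays.

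Casq1 minus Casq2 (calsequestrins) did not pass between sham ear and sham back skin (1.05, exact permutation adjusted p = 0.107), with Casq2 above background on 0 of 8 and 6 of 8 arrays. It differed by -3.21 between HDM and sham ears (exact permutation adjusted p = 0.000533), with Casq2 under background in both ear groups. Between HDM and sham back skin it differed by -1.49 (exact permutation adjusted p = 0.0602), and a limma fit gave an adjusted p of 0.0228. Between HDM ear and HDM back skin it differed by -0.67 (exact permutation adjusted p = 0.385), and by -1.51 when values below background were set to it (exact permutation adjusted p = 0.036).

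The metabolic genes did not move as one against skeletal actin. Mb minus Acta1 was -2.03 ± 0.38 in sham ears and -7.22 ± 0.47 in sham back skin (SD, n = 8 each), 5.19 higher in the ear (exact permutation adjusted p = 0.000533). In HDM mice it was -1.62 ± 0.38 in ears and -6.31 ± 0.58 in back skin, 4.68 higher in the ear (exact permutation adjusted p = 0.000533). It was 0.91 higher in HDM than in sham back skin (exact permutation adjusted p = 0.00808), and 0.4 higher in HDM than in sham ears, which did not pass (exact permutation adjusted p = 0.0834).

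Pgam2 minus Acta1 moved in opposite directions at the 2 sites. In ears it was -7.21 to -5.19 after HDM and -7.56 to -6.48 after sham, 0.71 higher after HDM (exact permutation adjusted p = 0.0298). In back skin it was -9.21 to -7.57 after HDM and -8.02 to -7.19 after sham, a difference of -0.74 (exact permutation adjusted p = 0.00485). Ckm minus Acta1 was lower in HDM than in sham ears (-0.56, exact permutation adjusted p = 0.0401). Its differences between HDM and sham back skin (-0.3, exact permutation adjusted p = 0.121) and between sham ear and sham back skin (0.06, exact permutation adjusted p = 0.703) did not pass.

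**Figure D5:**
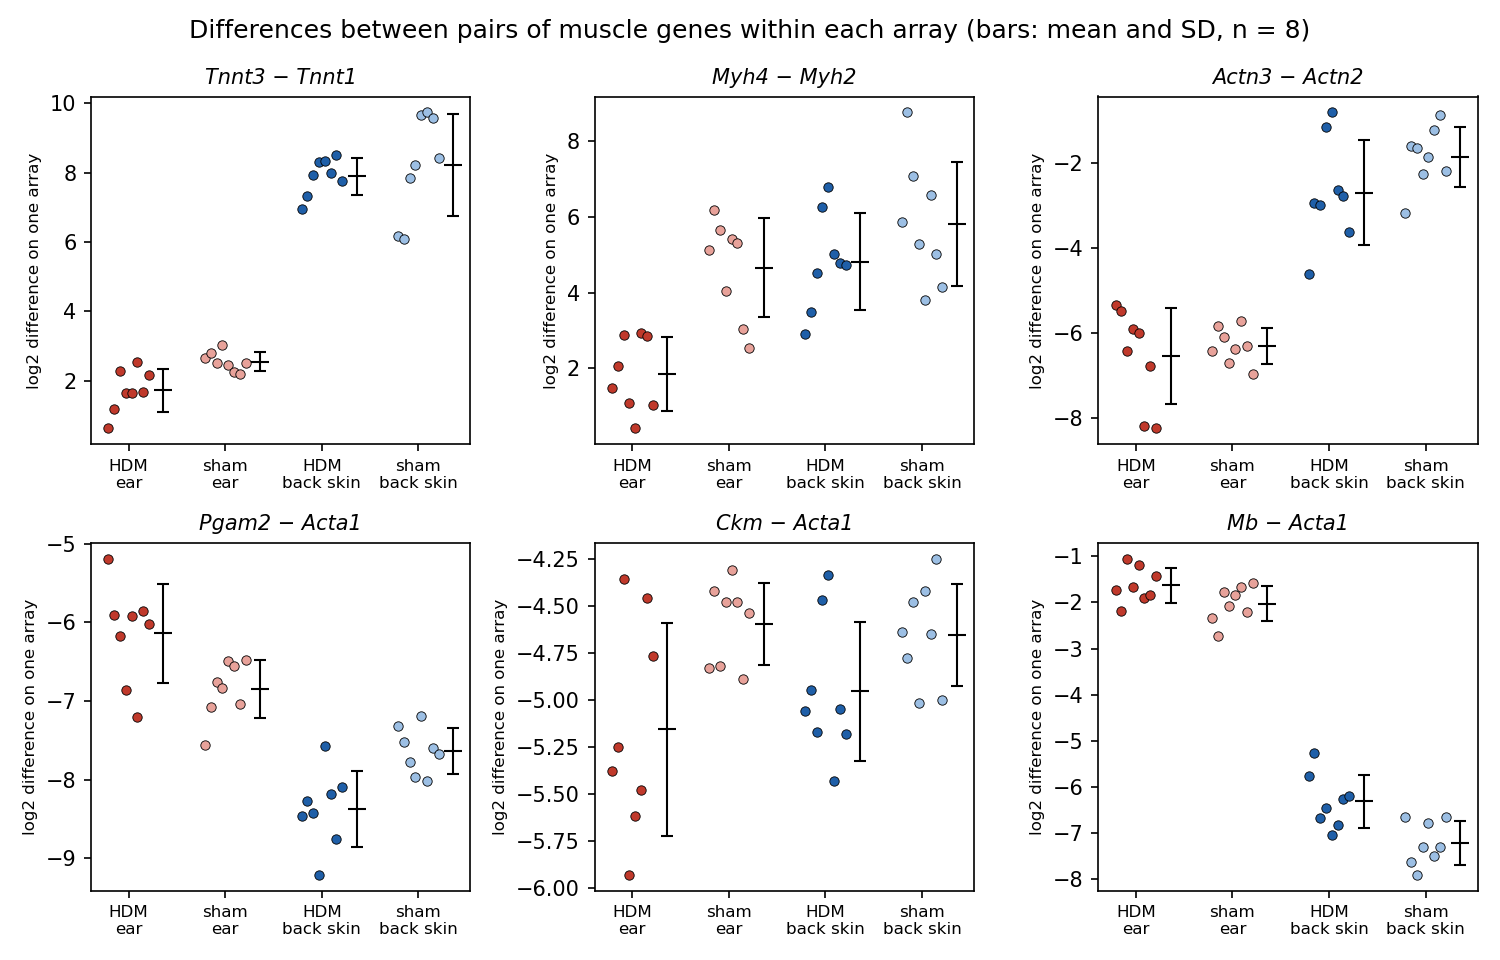
Log2 value of one muscle gene minus that of another on the same array (points), for 6 pairs, with mean and SD of the 8 arrays of each group (bars). Tnnt3 minus Tnnt1 is 0.62 to 3.03 in ears and 6.09 to 9.74 in back skin, Actn3 minus Actn2 is lower and Mb minus Acta1 higher in both ear groups, and Myh4 minus Myh2 is lowest in HDM ears.

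Arrays of one group differed in muscle genes, most in sham back skin. The median SD over the 40 members was 0.88 in HDM ears, 0.78 in sham ears, 0.54 in HDM back skin and 1.74 in sham back skin. For 40 of 40 members the SD was smaller in HDM than in sham back skin. No matching share of all tested rows was computed for this count or for the counts by mouse below. The wider spread of sham back skin was not confined to muscle genes. Array means of the hair follicle markers had an SD of 3.06 over sham back skin arrays, against 0.71 over those after HDM. For adipocyte markers the same SDs were close, at 0.31 and 0.30. Among members above background on every array of a group, the median pairwise correlation was 0.96 in sham back skin and 0.39 in HDM back skin. It was 0.86 in sham ears and 0.81 in HDM ears, so counts over members are not counts of independent observations. In sham back skin 33 members had their lowest value in mouse 2, and 20 and 18 had their highest in mouse 7 and mouse 5. In HDM ears 20 members were lowest in mouse 1 and 10 in mouse 2, while in sham ears 23 were lowest in mouse 8 and 23 highest in mouse 3. In HDM back skin 20 were lowest in mouse 1 and 19 highest in mouse 4. Myh4 in HDM ears showed this spread, at 9.62, 10.23, 14.46, 11.93, 9.95, 14.07, 12.97 and 13.29 in mice 1 to 8.

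Other genes of the muscle fibre were read from lists of further sarcomere, slow fibre, calcium and metabolic genes. In HDM against sham ears, 15 of 25 further sarcomere genes fell and 0 rose, led by Myom2 (-3.34 ± 0.56, limma adjusted p = 1.93e-05), a protein of the M-band. Of 18 further genes of calcium handling and excitation, 14 fell, led by Srl, sarcalumenin (-2.71 ± 0.50), and Mstn, myostatin (-2.36 ± 0.63). Of 18 further metabolic genes, 11 fell, among them Phka1, a phosphorylase kinase subunit (-2.44 ± 0.40), and Pfkm, muscle phosphofructokinase (-2.40 ± 0.45). Their medians were -1.06, -0.90 and -1.14.

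Of 9 further slow fibre genes, 5 fell and 2 rose in HDM ears, and the 2 were Tpm3 (0.8 ± 0.17) and Atp2a2 (0.38 ± 0.11), both of which non-muscle cells express too. Myh7, the slow myosin heavy chain, had 3.5 to 5.64 in HDM ears and 6.12 to 9.04 in sham ears and fell by 2.99 ± 0.35 (limma adjusted p = 1.09e-07), and Myl2, its regulatory light chain, fell by 2.40 ± 0.33. In sham ear against sham back skin 4 of these 9 were higher and 1, Casq2, was lower. The 4 were Myh7 (3.53 ± 0.35), Myoz2 (3.18 ± 0.47), a Z-disc protein of slow fibres, Csrp3 (2.58 ± 0.55) and Myl2 (2.52 ± 0.33). Without sham back skin mice 1 and 2 these were at 3.79, 2.62, 2.09 and 2.55, with 4 higher and 1 lower. Myh7 was above background on 1 of 8 sham back skin arrays.

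In back skin, members of 1 of these 4 lists fell after HDM, that of further metabolic genes, and of the further calcium genes 2 fell when sham mice 1 and 2 were left out. Of 18, 4 were lower and 0 higher, where 8.56% of all rows were lower, with a median of -0.54 beside 0.01 for all rows. Pdk4, a kinase that restrains pyruvate oxidation, had 9.59 to 10.66 in HDM and 10 to 13.59 in sham back skin and fell by 1.69 ± 0.34 (limma adjusted p = 0.000718). Fbp2, muscle fructose bisphosphatase, and Phka1 fell by 1.44 ± 0.34 (a difference of -0.93 when values below background were set to it) and 1.34 ± 0.4, and Esrrg was under background in both groups. Without sham mice 1 and 2, 7 of 18 were lower, with Pdk4 at -2.02, Fbp2 at -1.86 and Phka1 at -1.68. Pdk4 was also lower in sham ear than in sham back skin (-3.15 ± 0.34, and -3.48 without the 2 mice). In both comparisons adipocyte markers were lower as well (6 and 9 of 10 genes), and their part in the Pdk4 values was not tested.

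Musk, the receptor kinase of the neuromuscular junction, was at least 3.98-fold higher in sham ear than in sham back skin, being under background on all sham back skin arrays. Of 6 satellite cell markers, Pax7, Myf5, Cdh15, Chrdl2 and Calcr were under background in every group. The sixth, Des, desmin, which mature fibres and smooth muscle express too, fell in HDM ears (-1.05 ± 0.36) and was lower in sham ear than in sham back skin (-1.39 ± 0.36). Of 8 cardiac markers, Myh6, Nppa and Nppb were under background in every group. Actc1, Myl4, Myl7 and Tnni3 lay near background, with group means of 3.86 to 5.33, and Actc1 fell in HDM ears (-0.57 ± 0.18). Myl7 was called higher in HDM than in sham ears, but it was above background on 2 and 0 of 8 arrays, so no size is given. Myl4 was higher in sham ear than in sham back skin (0.56 ± 0.21), above background on 3 and 1 of 8 arrays. Tnnt2, the cardiac form of troponin T, was at least 1.98-fold higher in sham ear than in sham back skin and at least 1.84-fold lower in HDM than in sham ears. Smooth muscle markers were lower in sham ear than in sham back skin for 8 of 8 genes, and between HDM and sham ears 2 were lower and 1, Acta2, higher (1.15 ± 0.20, limma adjusted p = 4.16e-05). Hair follicle markers were lower in sham ear than in sham back skin for 11 of 11 genes, and 1 of 11 was lower in HDM than in sham ears.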

How the data were processed

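Per the labels' protocols, ear and back skin punches of NC/Nga mice lay in RNAlater for 18 hours or more, and biotin was added to 100 ng of RNA from each. The deposited values are log2 levels that the authors made by RMA, per the submitters' processing notes, which name the Transcriptome Analysis Console. Its version and the genome build are not given in the sources that were used. From 28846 rows, 6640 control rows were left out and 22206 tested. limma 3.58.1 in R 4.3.3 fitted 4 group means over 32 arrays (32.1 degrees of freedom), two-sided, with Benjamini-Hochberg adjustment over all tested rows and calls at adjusted p under 0.05. Groups are those of the labels, 8 arrays each, and the number of arrays limits the precision. Gene pairs were compared by exact permutation tests (scipy 1.17.1). Scripts were tested on simulated data. The members, pairs and the 18 gene lists (182 genes, 175 with a row) were chosen with earlier results of these data known. Full statistics are given for the 4 largest called and the 2 smallest differences per comparison and for the genes of pairs, and up to 3 called genes of each other list; others are given by values, chosen after they were seen. Alternatives were a replicate block, variance priors, array weights, a filter on dim rows, array scaling, symbol means, fewer groups, left-out arrays and, added after seeing the data, a random animal block and the other gene lists without 2 arrays.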

Additional observations from a re-analysis of the deposited data

Results flagged for a closer look

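The HDM effect in the ear was more negative than that in back skin for 24 members, by the limma test of the difference itself, and the values in parentheses are the ear effect minus the back skin effect on the log2 scale. The contractile genes were Myh4 (-4.75), Ttn (-3.56), Neb (-3.17), Myh1 (-3.09), Tnnt3 (-2.91), Mybpc1 (-2.62), Tnnt1 (-2.41), Acta1 (-2.18), Tnni1 (-1.54) and Tnnc1 (-1.34). Those of the Z-disc and its scaffolds were Tcap (-2.92), Nrap (-2.90), Myot (-2.73), Actn2 (-2.56), Ldb3 (-2.52) and Xirp2 (-2.39). The calcium genes were Pvalb (-3.30), Atp2a1 (-3.13), Trdn (-2.85), Ryr1 (-2.82) and Sln (-2.0). The metabolic genes were Mb (-2.68), Ckm (-2.44) and Pygm (-2.41). Tnni1 was above background on 1 of 8 sham ear arrays and on none of the other 24 arrays, so its value is bounded by background.

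One value stood far from the rest of its group. Pvalb was at 8.16 in HDM back skin mouse 1, while the other 7 mice had 9.97 to 11.37, and the gap exceeded the critical value of Dixon's test for 8 samples. In all, 208 groups of 8 values were looked at, and chance marks about 1 in 20 of them.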

How the results depend on the processing

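Counts of called members held within 1.5 times the main count under a replicate block, a robust prior with trend, array weights, a random animal block, a filter on dim rows, equal array medians and symbol means, in all 5 comparisons. Equal array medians moved the median of all rows by 0.125 in HDM against sham back skin, -0.123 in the difference between sites and 0.123 in sham ear against sham back skin. Same-numbered ear and back skin arrays correlated in their deviations from group means between -0.084 and 0.14 in HDM mice. In sham mice these correlations ran between -0.113 and 0.04. Different tissues of one animal need not correlate, so these values cannot show whether a number marks one animal. With the replicate block, 38 members were lower in HDM ears, 1 was higher in HDM back skin, 23 were lower in the difference between sites, 8 and 9 were lower and higher in sham ear against sham back skin, and 32 and 1 in HDM ear against HDM back skin.

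Fitting only the groups compared gave 5 members lower in sham ear against sham back skin and 3 higher in HDM ear against HDM back skin. Without sham back skin mice 1 and 2, 4 members were lower in HDM back skin, 15 in the difference between sites, and 13 lower and 5 higher in sham ear against sham back skin. The cause was not tested. Leaving out each array in turn gave 36 to 38 lower in HDM ears, 0 lower and 1 higher in HDM back skin, 20 to 35 lower in the difference between sites, 5 to 11 lower and 5 to 9 higher in sham ear against sham back skin, and 30 to 32 lower and 1 to 2 higher in HDM ear against HDM back skin. No called member reversed its direction. Of 200 values, 199 kept their call with the block, 195 with array weights, 197 with equal medians and 176 without the 2 mice; 149 of 160 did so with fewer groups. Values near background limit Tnni1, Tnnc1, Mybpc2, Casq2, Myh7 and Myl2.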
